A study of Mus musculus with 22 samples.

Results

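The genes described here are 9 parts of bone morphogenetic protein (BMP) signalling: the ligands Bmp2, Bmp4, Bmp6 and Bmp7, the secreted antagonists Grem1 and Nog, and the target genes Id1, Id2 and Id3. They were taken by exact gene name from the authors' deposited normalized table, where all 9 occur among 34378 names. All 9 were also among the 18062 genes measured in the scanner files, which gave every value below unless stated otherwise. The study measured total RNA of mouse cells labelled CF, read here as cardiac fibroblasts although the labels do not spell it out, in a protocol that reprograms them into induced cardiomyocytes (iCM), and its design text sets the arrays beside single-cell RNA-seq that was not used here. The strain of all 11 groups was CD1 and their genotype aMHC-GFP, in which the Myh6 (cardiac myosin) promoter drives GFP; the labels give no age and mention no sorting. Untransduced CF were taken at day 0. The other groups were CF given a control retrovirus with lacZ, the bacterial beta-galactosidase gene, or CF given MGT, 1 polycistronic transgene with the cardiac transcription factors Mef2c, Gata4 and Tbx5, each taken at days 3, 5, 7, 10 and 14. Every group had 2 Agilent 1-colour arrays, 22 in all, so the number of arrays limits the precision.

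BMPs are secreted ligands of the TGF-beta superfamily that bind paired type I and type II receptor kinases. The receptors phosphorylate SMAD proteins, which join Smad4 and switch on target genes, among which the Id genes are the best known immediate targets. Id proteins lack a DNA-binding domain and hold E proteins away from DNA, while noggin and gremlin bind BMPs outside the cell and keep them from their receptors. In the embryonic heart BMP2 and BMP4 take part in cardiac induction and in valve formation, and in fibroblasts the pathway is often set against TGF-beta signalling.

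A level is the log2 processed spot intensity minus the array's 75th percentile, so 0 is a signal at that percentile, and levels of different genes cannot be compared because each probe binds with its own strength. A difference is a log2 difference of group means with the standard error (SE) of 1 limma fit over all 22 arrays, and an adjusted p is its Benjamini-Hochberg value over all genes tested, with a threshold of 0.05. Whether the 2 replicates of a group were separate cultures or animals is not in the labels, so the p-values reflect the spread among these arrays alone, and that spread may be technical. In these bulk samples fewer cells of a type and less RNA per cell cannot be told apart. The lacZ and MGT arrays of days 3 and 5 shared slide 1, those of days 7 and 10 shared slide 2, and day 0 shared slide 3 with day 14 lacZ. The day 14 MGT arrays were alone on slide 4, so at day 14 slide and vector cannot be told apart. The second day 14 lacZ array stood apart, with a 75th percentile of 729 against 1285 to 2124 on the other arrays and 48.4% of its spots well above background, the lowest of all. The labelled cell types were checked against their markers: on every array all 9 fibroblast markers were well above background, and the 4 cardiomyocyte markers above background on every array (Myh6, Tnnt2, Actc1 and Nppa) were higher with MGT by 1.90 to 8.69. The macrophage markers were also present, with 7 or 8 of 8 well above background on each transduced array and a median difference of -0.02 between MGT and lacZ. Their summed level moved with time: it lay between 4.77 and 4.93 at day 0 and between 3.67 and 5.0 at days 3 and 5, and was 7.14 and 7.57 with lacZ and 6.85 and 6.99 with MGT at day 14, and its part in the changes over time was not tested.

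Both antagonists were higher with MGT than with lacZ, and the Id genes were lower. Averaged over days 3 to 14, Grem1 was 6.76-fold and Nog 2.36-fold higher with MGT than with lacZ (10 arrays each), while Id1 was 3.58-fold, Id3 2.25-fold and Id2 1.66-fold lower. The ligands split: Bmp4 was 2.0-fold and Bmp6 2.24-fold lower, and Bmp7 did not pass the test. Bmp2 was 1.35-fold higher, an average of opposite signs (log2 1.01, 1.47, 0.52, -0.50 and -0.33 from day 3 to day 14). In log2 terms the differences were 2.76 for Grem1 (SE 0.11, adjusted p = 9.76e-11), 1.24 for Nog (SE 0.06, adjusted p = 7.53e-10), -1.84 for Id1 (SE 0.06, adjusted p = 7.81e-12), -1.17 for Id3 (SE 0.04, adjusted p = 3.94e-11) and -0.73 for Id2 (SE 0.05, adjusted p = 1.66e-08). In all 8 of the 9 genes passed, 3 higher and 5 lower. That count stands beside 63.9% of all 18061 genes tested in this comparison, 23.2% higher and 40.7% lower. Passing the test is thus common here, and the count says little by itself. The median difference of all genes was -0.09 on the log2 scale. Of all calls 36.4% were higher, and 49.2% when arrays were scaled by the percentile over probes above background on every array, a choice that moved no call of the 9 genes here. For Bmp6, Grem1, Nog, Id1 and Id3 the 10 MGT arrays did not overlap the 10 lacZ arrays at any time. How many of all genes did the same was not counted, so this only describes these genes.

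**Figure D1:**
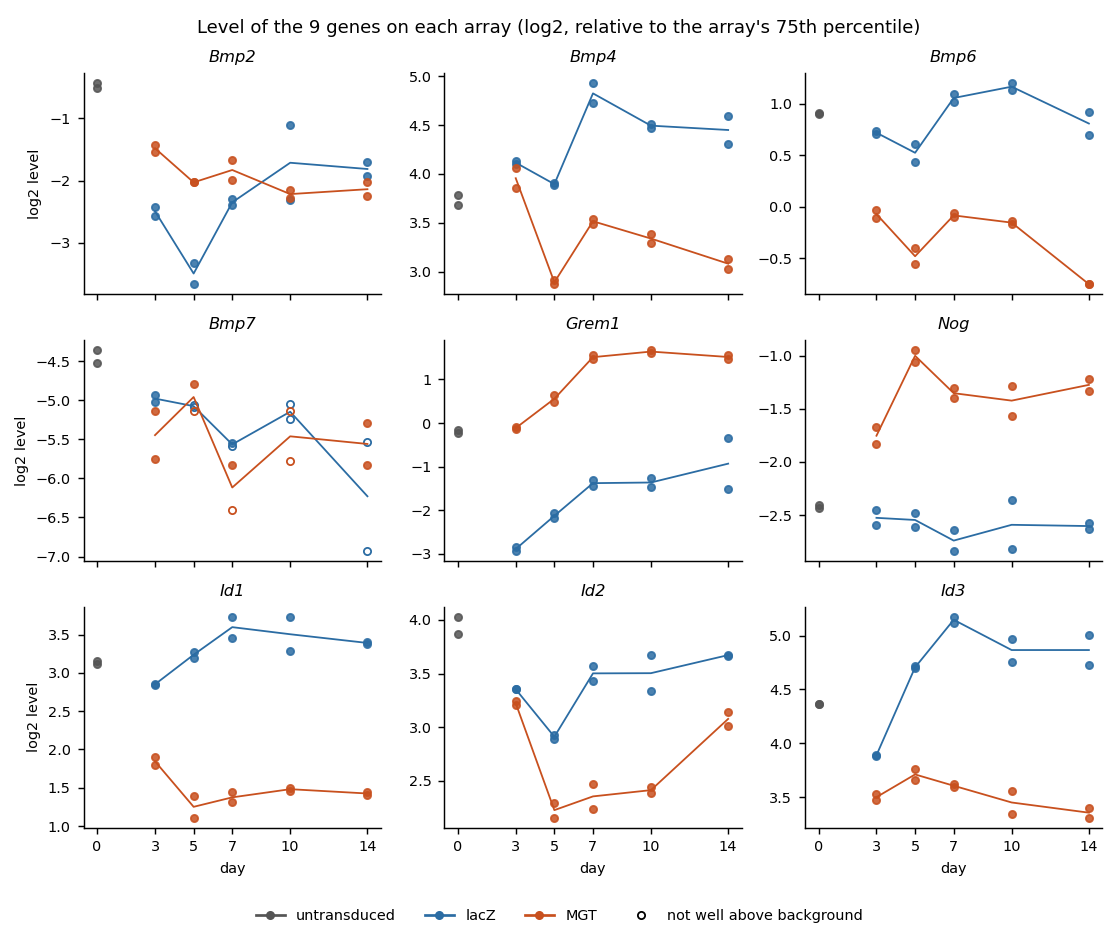
Log2 level (relative to the array's 75th percentile) of each of the 9 genes on each of the 22 arrays against the day, with grey points for untransduced CF, blue for lacZ and orange for MGT; lines join the means of the 2 arrays of a group and open points are not well above background. Grem1 and Nog lie higher with MGT on all 5 days, and Bmp6, Id1 and Id3 lie lower without overlap.

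Bmp4, a ligand made by many mesenchymal cells, was lower with MGT after day 3. Its probe lies at chr14:47003391-47003450 (mm9, minus strand). Its lacZ levels were 4.10 and 4.13 at day 3, 3.90 and 3.89 at day 5, 4.72 and 4.93 at day 7, 4.48 and 4.51 at day 10, and 4.59 and 4.31 at day 14. With MGT they were 3.86 and 4.06, then 2.87 and 2.91, 3.49 and 3.54, 3.29 and 3.39, and 3.03 and 3.13 on the same days. Within each day every MGT array lay below both lacZ arrays, while over all days the groups overlap through day 3. The difference was -0.16 at day 3 (SE 0.10, adjusted p = 0.258 in the limma fit) and -1.0 at day 5 (adjusted p = 2.47e-06). On the later days it was -1.31, -1.16 and -1.37, with the same SE and 2 arrays a group each day. Untransduced CF had 3.79 and 3.68, below every lacZ array and above the MGT arrays from day 5 on. Against them lacZ cultures were higher at day 3 (0.38) and at day 14 (0.71), and MGT cultures were lower at day 14 (-0.65). Bmp4 had a further probe, which was well above background on 0 of 22 arrays and was not used; of its 60 bases 85% are A or T.

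Bmp6, a ligand known for its part in iron control and in bone, was lower with MGT on every array. Its probe lies at chr13:38591479-38591538 (mm9, plus strand). Untransduced CF had 0.90 and 0.91, and the 10 lacZ arrays lay between 0.44 (day 5) and 1.20 (day 10). The 10 MGT arrays lay between -0.75 and -0.03. The highest of them was a day 3 array and the lowest were both day 14 arrays. The difference grew from -0.79 at day 3 (SE 0.08, adjusted p = 6.84e-06) over -1.0, -1.14 and -1.32 at days 5, 7 and 10 to -1.56 at day 14 (adjusted p = 4.94e-09). Against day 0, lacZ cultures gave -0.19 at day 3 (adjusted p = 0.0614) and -0.10 at day 14 (adjusted p = 0.295), neither a call. The latter became -0.21 (adjusted p = 0.0373) without the first day 14 lacZ array.

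Bmp2, a ligand with a role in cardiac induction, was higher with MGT on the early days. Its probe lies at chr2:133388260-133388319 (mm9, plus strand). Its levels were highest before transduction, at -0.43 and -0.52, and no transduced array reached them. The lacZ arrays had -2.57 and -2.42 at day 3, -3.32 and -3.67 at day 5, -2.40 and -2.30 at day 7, -2.31 and -1.11 at day 10, and -1.93 and -1.70 at day 14. With MGT the values were -1.43 and -1.53, -2.03 and -2.03, -1.68 and -1.98, -2.15 and -2.28, and -2.03 and -2.25. Both courses dipped at day 5, the lacZ arrays further than the MGT arrays. Bmp2 was higher with MGT at day 3 (1.01, SE 0.27, adjusted p = 0.0119) and day 5 (1.47, adjusted p = 0.000756). On the later days it gave 0.52, -0.50 and -0.33, and none passed. The day 3 call was lost without the first day 3 lacZ array (adjusted p = 0.0754) or without the first day 3 MGT array (adjusted p = 0.0692). The 2 day 10 lacZ arrays lay 1.20 apart, and their summed macrophage marker levels were 5.08 and 6.44, whose part was not tested. Without the first of them Bmp2 was called lower with MGT at day 10 (-1.10, adjusted p = 0.0002). Its averaged difference of 0.43 (SE 0.12, adjusted p = 0.00674) was 0.01 within slide 2 (days 7 and 10, adjusted p = 0.985).

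Bmp7, a ligand with a role in kidney and bone, was near the limit of detection, well above background on 11 of 22 arrays. Its probe lies at chr2:172695203-172695262 (mm9, minus strand). Its levels ran from -6.93 to -4.36, the highest on the untransduced arrays (-4.52 and -4.36). The difference between MGT and lacZ passed on none of the 5 days (smallest adjusted p = 0.166, at day 14). At day 14 it was called higher with MGT once the second lacZ array was left out (adjusted p = 0.00481) and with the authors' deposited table (adjusted p = 0.00575); no size is given, since neither lacZ array of that day was above background. Averaged, the difference was -0.11 (SE 0.17, adjusted p = 0.593), with 6 of 10 MGT and 3 of 10 lacZ arrays above background. At day 14, where 0 of 2 lacZ arrays were above background, Bmp7 was at least 1.21-fold lower than in untransduced CF (the floor is the lowest signal well above background on each lacZ array; adjusted p = 0.000877). Within its slide that comparison had an adjusted p of 0.0636, and with normexp correction of the background 0.593, so the call was lost in both. MGT cultures were also lower than day 0, by -1.01 at day 3 (adjusted p = 0.0331) and -1.12 at day 14 (adjusted p = 0.0172). The first of these was lost without either day 0 array or the first day 3 MGT array (adjusted p = 0.0742 to 0.218), with normexp (-0.22, adjusted p = 0.464) and with the percentile over probes above background on every array (adjusted p = 0.0524), and the second without the second day 0 or the first day 14 MGT array (0.0755 and 0.129).

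The antagonists are introduced by sequence, since the upstream bases of Grem1 hold both elements that were searched and the Nog probe shows where noggin RNA was read. The Grem1 bases are the 250 before its start in RefSeq (GRCm38.p6, minus strand, chr2:113758649-113758898). Capitals mark GGCGCC, a GC-rich element bound by the SMADs that BMP receptors activate, and GTCTG or its reverse complement CAGAC, a form of the SMAD-binding element. The Nog probe reads coding sequence of that gene from base 965 of its transcript (mm9, minus strand, chr11:89162849-89162908).
Grem1 upstream: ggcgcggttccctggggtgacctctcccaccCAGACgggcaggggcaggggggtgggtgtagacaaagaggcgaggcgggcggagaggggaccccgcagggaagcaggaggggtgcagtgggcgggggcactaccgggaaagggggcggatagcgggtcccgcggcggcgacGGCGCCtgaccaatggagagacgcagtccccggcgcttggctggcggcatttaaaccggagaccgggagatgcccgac
Nog probe: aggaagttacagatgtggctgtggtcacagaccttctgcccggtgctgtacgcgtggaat

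Grem1 encodes gremlin, which binds BMP2, BMP4 and BMP7, and its probe lies at chr2:113589227-113589286 (mm9, minus strand). Untransduced CF had levels of -0.24 and -0.15. With lacZ they were -2.84 and -2.93 at day 3, -2.07 and -2.18 at day 5, -1.30 and -1.45 at day 7, -1.25 and -1.48 at day 10, and -0.34 and -1.52 at day 14. With MGT they were -0.13 and -0.10, then 0.47 and 0.64, 1.47 and 1.55, 1.67 and 1.60, and 1.48 and 1.55. Thus the lacZ cultures were low at day 3 and higher later, and the MGT cultures began at the untransduced level and stood above it from day 5 on. Grem1 fell in lacZ cultures from day 0 to day 3 (-2.69, SE 0.25, adjusted p = 9.69e-07), and in MGT cultures the same comparison gave 0.08 (SE 0.25, adjusted p = 0.804). By day 14 MGT cultures were 1.71 above day 0 (adjusted p = 3.64e-05). Between vectors the difference was 2.77, 2.68, 2.89, 3.0 and 2.44 from day 3 to day 14 (SE 0.25 each, largest adjusted p = 3.91e-06), so it was of like size on each day while both courses moved. The like size at day 14 rests on both lacZ arrays of that day, which lay 1.18 apart. Without the second of them the day 14 difference was 1.86. The day 14 call was lost with only the 4 arrays of that day (adjusted p = 0.0506), while the fall of lacZ cultures from day 0 to day 14 (-0.74, adjusted p = 0.0179) was lost within its slide (adjusted p = 0.248), without the second day 0 array (adjusted p = 0.0745) and when the second day 14 lacZ array was left out (-0.15, adjusted p = 0.235).

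Nog encodes noggin, an antagonist of BMP2, BMP4 and related ligands. It was near its day 0 level (-2.43 and -2.40) in lacZ cultures, whose 10 arrays lay between -2.84 and -2.36. The MGT arrays had -1.83 and -1.67 at day 3, -1.05 and -0.95 at day 5, -1.31 and -1.40 at day 7, -1.56 and -1.28 at day 10, and -1.22 and -1.33 at day 14. All 10 MGT arrays stood above all 12 others. The difference was 0.77 at day 3 (SE 0.14, adjusted p = 0.000757), then 1.55, 1.39 and 1.17, and 1.33 at day 14 (adjusted p = 4.15e-06). In lacZ cultures the difference from day 0 was -0.11 at day 3 (adjusted p = 0.525) and -0.18 at day 14 (adjusted p = 0.245), neither a call, and MGT cultures were higher than day 0 at both (0.67 and 1.14).

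Of the Id genes, the upstream sequences of Id2 and Id3 are shown because both averaged lower with MGT than with lacZ while they differ in the elements they hold. Both are the 250 bases before the RefSeq start in GRCm38.p6, Id2 on the minus strand at chr12:25096093-25096342 and Id3 on the plus strand at chr4:136143572-136143821, with capitals as for Grem1. The Id3 probe reads coding sequence from base 338 of the transcript. It covers chr4:135700075-135700249 in mm9, and its 60 bases lie over 175 bases of genome, so it spans an intron.
Id2 upstream: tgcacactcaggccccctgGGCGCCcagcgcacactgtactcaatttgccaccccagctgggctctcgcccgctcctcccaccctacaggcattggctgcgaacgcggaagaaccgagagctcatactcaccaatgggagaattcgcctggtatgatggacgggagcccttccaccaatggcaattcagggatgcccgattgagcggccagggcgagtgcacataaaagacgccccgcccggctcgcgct
Id3 upstream: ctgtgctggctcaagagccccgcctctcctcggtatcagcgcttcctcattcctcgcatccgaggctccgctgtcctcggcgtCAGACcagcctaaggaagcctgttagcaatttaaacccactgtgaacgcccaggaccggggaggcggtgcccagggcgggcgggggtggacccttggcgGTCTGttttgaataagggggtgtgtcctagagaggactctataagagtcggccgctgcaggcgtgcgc
Id3 probe: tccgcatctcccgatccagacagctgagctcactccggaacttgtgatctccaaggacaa

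In these bases GGCGCC, which reads the same on both strands, lies at -78 in Grem1 and -231 in Id2 and nowhere in Id3 (-1 is the base before the start). GTCTG or CAGAC lies at -219 in Grem1, at -167 and -68 in Id3, at -119 in Bmp6 and nowhere in Id2. Bmp4 has neither in this window. Of 32851 RefSeq mouse promoters, 9.59% hold GGCGCC and 42.19% hold GTCTG or CAGAC in the same 250 bases, so the latter is common. Sequences were found for 5 of the 9 genes, not for Bmp2, Bmp7, Nog and Id1. A match describes these letters only, and genes with GGCGCC moved in both directions (Grem1 higher, Id2 lower with MGT).

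Id1 had the largest averaged decrease of the 9 genes. Its probe lies at chr2:152563083-152563142 (mm9, plus strand). Its levels were 3.12 and 3.15 at day 0. In lacZ cultures they were 2.86 and 2.84, 3.28 and 3.19, 3.73 and 3.46, 3.72 and 3.28, and 3.41 and 3.37 from day 3 to day 14, and in MGT cultures 1.79 and 1.90, 1.11 and 1.39, 1.31 and 1.44, 1.5 and 1.46, and 1.44 and 1.41. The highest MGT array (1.90, day 3) lay below the lowest lacZ array (2.84, day 3). The difference was -1.0 at day 3 (SE 0.13, adjusted p = 5.99e-05), then -1.98, -2.22 and -2.02, and -1.96 at day 14 (adjusted p = 5.75e-08), so from day 5 on it was of like size. MGT cultures were lower than day 0 at day 3 (-1.29) and day 14 (-1.71), and lacZ cultures gave -0.28 (adjusted p = 0.0779) and 0.26 (adjusted p = 0.0965), neither a call.

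Id3 followed a like course from a smaller start. Its levels were 4.37 and 4.37 at day 0. The lacZ arrays went from 3.88 and 3.89 at day 3 to 4.69 and 4.72 at day 5 and 5.12 and 5.17 at day 7, and stood at 4.97 and 4.76 at day 10 and 5.01 and 4.72 at day 14. The 10 MGT arrays stayed between 3.31 and 3.76, below every lacZ array. The difference was -0.39 at day 3 (SE 0.10, adjusted p = 0.00785), then -0.99, -1.54 and -1.41, and -1.51 at day 14 (adjusted p = 4.33e-08). It widened while lacZ levels stood higher after day 3 and MGT levels kept within their narrow range. The day 3 call was lost with the authors' deposited table (adjusted p = 0.115) and without the second day 3 MGT array (adjusted p = 0.0555).

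Id2 had the smallest averaged decrease of the 3 Id genes and the least even one. Its probe lies at chr12:25778904-25778963 (mm9, minus strand). It was highest at day 0, at 4.03 and 3.87. With lacZ its levels were 3.35 and 3.35, 2.89 and 2.93, 3.43 and 3.57, 3.34 and 3.67, and 3.68 and 3.67 at days 3, 5, 7, 10 and 14, and with MGT 3.20 and 3.24, 2.16 and 2.30, 2.24 and 2.47, 2.44 and 2.38, and 3.01 and 3.14. Both courses dipped at day 5, and the MGT arrays lay nearest to the lacZ arrays at days 3 and 14. The difference was -0.13 at day 3 (SE 0.11, adjusted p = 0.428), then -0.68, -1.15 and -1.09, and -0.60 at day 14 (adjusted p = 0.00055). At day 14 the call was lost with the authors' deposited table (-0.20, adjusted p = 0.377) and with normexp correction of the background (-0.25, adjusted p = 0.206).

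By day, 6 of the 9 genes passed at day 3, 3 higher and 3 lower, where 30.4% of all genes passed (12.3% higher, 18.1% lower). At day 5 there were 3 higher and 5 lower (all genes 38.1%, with 16.2% higher and 21.9% lower). Each later day had 2 higher and 5 lower, against 37.3% of all genes for day 7 (14.9% higher, 22.4% lower), 39.3% for day 10 (15.2% and 24.2%) and 47.6% for day 14 (18.2% and 29.3%). Higher calls were thus 2 or 3 of 9 genes, beside 12.3% to 18.2% of all genes. Lower calls were 3 or 5 of 9, beside 18.1% to 29.3%. The 2 higher calls of days 7, 10 and 14 lie near the share of all genes. Bmp6, Id1 and Id3 were called lower and Grem1 and Nog higher on all 5 days. Bmp4 and Id2 were called lower on the 4 days from day 5 on, and Bmp2 was called higher on 2 days. How many of all genes were called the same way on as many days was not counted, so this only describes these genes. The change of the difference from day 3 to day 14 was tested as well, and it crosses slides. There 7 of the 9 genes passed, 1 higher and 6 lower, where 27.6% of all genes passed (12.3% higher, 15.3% lower). Bmp4 changed by -1.21 (SE 0.14, adjusted p = 4.17e-05) and Id3 by -1.12 (adjusted p = 7.89e-05), and both also changed from day 3 to day 5 within slide 1. Grem1 did not pass (-0.33, SE 0.35, adjusted p = 0.529), but without the second day 14 lacZ array its change was -0.92 (adjusted p = 0.000445), and without the first it was 0.26 (adjusted p = 0.152).

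**Figure D2:**
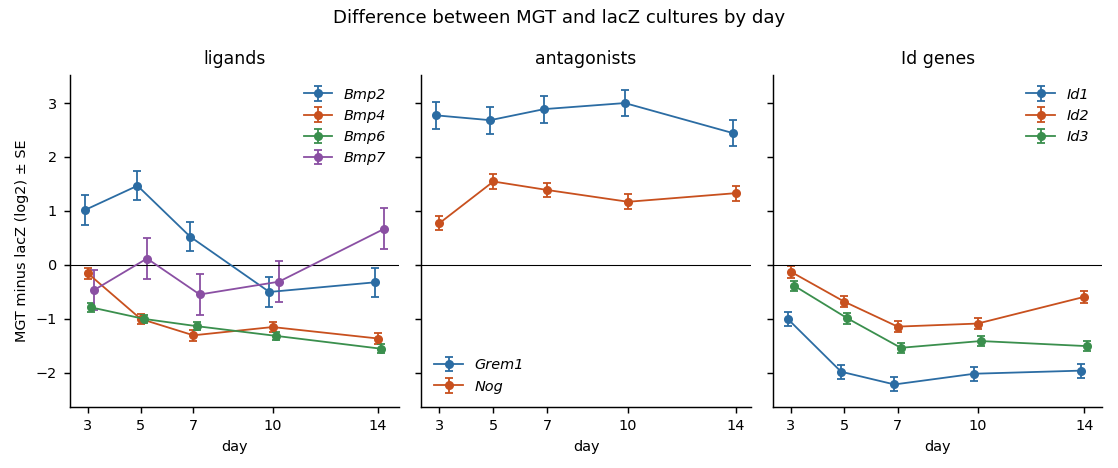
Difference of MGT minus lacZ (log2, y axis) against the day for the 4 ligands, the 2 antagonists and the 3 Id genes; points are differences of means of 2 arrays a group and bars are 1 SE of the limma fit. Grem1 lies between 2.44 and 3.0 on all days, Nog between 0.77 and 1.55, and Bmp2 passes from 1.01 at day 3 to -0.33 at day 14.

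Against untransduced CF, the comparisons share the same 2 day 0 arrays, so their values are set side by side and not counted together. At day 3 lacZ cultures had 1 gene higher and 4 lower, beside 57.8% of all genes (28.8% higher, 29% lower). MGT cultures had 1 higher and 6 lower at day 3, beside 62.4% (29.3% and 33.1%). At day 14 lacZ cultures, which shared slide 3 with day 0, had 2 higher and 4 lower in the fit of all arrays, beside 68.9% (35.5% and 33.4%). MGT cultures of day 14 had 2 higher and 7 lower across slides, beside 70.5% (33.1% and 37.4%). Bmp2 was lower than at day 0 in each of these: -2.02 and -1.34 in lacZ cultures at days 3 and 14, and -1.0 and -1.66 in MGT cultures. Id2 was also lower in each, at -0.60 and -0.28 with lacZ and -0.73 and -0.87 with MGT. Id3 moved apart, with -0.48 at day 3 and 0.50 at day 14 in lacZ cultures against -0.87 and -1.01 in MGT cultures. With the authors' deposited table both lacZ calls of Id3 were lost, at day 3 (-0.35, adjusted p = 0.0677) and at day 14 (0.33, adjusted p = 0.0658). Of the 6 lacZ calls at day 14, 2 were left within slide 3 alone, and the calls of Id2 (adjusted p = 0.139) and Id3 (adjusted p = 0.0627) were among those lost. The Id2 call was also lost without the first day 0 array or without either day 14 lacZ array (adjusted p = 0.0774 to 0.207).

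The order of the 11 groups shows the same split for most genes; overlap below means that a group's arrays overlap those of the next group in the order, so groups further apart in a run need not overlap. For Id1 and Id3 the 5 lacZ groups and day 0 hold the 6 highest places and the 5 MGT groups the lowest, and for Nog the MGT groups hold the 5 highest. Among the Id1 groups, day 7 lacZ (3.6 ± 0.19, SD, n = 2), day 10 lacZ (3.50 ± 0.31) and day 14 lacZ (3.39 ± 0.03) overlap in a run, as do day 14, day 7 and day 5 MGT (1.43 ± 0.03, 1.38 ± 0.09 and 1.25 ± 0.20). The Grem1 order is day 10 MGT (1.64 ± 0.05), then day 14 and day 7 MGT, which overlap, day 5 MGT (0.56 ± 0.12), day 3 MGT and day 0, and below them the lacZ groups down to day 3 (-2.89 ± 0.06), where day 14, day 10 and day 7 overlap in a run. For Nog the arrays of days 14, 7 and 10 MGT overlap in a run below day 5 MGT (-1.0 ± 0.08), and so do those of days 3, 5, 10 and 14 lacZ. The Bmp4 order runs from day 7 lacZ (4.82 ± 0.15) to day 5 MGT (2.89 ± 0.03), with overlap of days 10 and 14 lacZ and of day 3 MGT and day 5 lacZ. Bmp6 runs from day 10 lacZ (1.17 ± 0.05) to day 14 MGT (-0.75 ± 0.00), with overlap of day 14 lacZ with day 0 above it and day 3 lacZ below it, and of days 3 and 7 MGT. Id3 runs from day 7 lacZ (5.15 ± 0.04) to day 14 MGT (3.36 ± 0.07), and Id2 from day 0 (3.95 ± 0.11) to day 5 MGT (2.23 ± 0.10), with runs of days 10 and 14 lacZ and of days 3, 10 and 14 MGT for Id3, and of days 14, 10 and 7 lacZ and of days 10, 7 and 5 MGT for Id2. For Bmp2, day 0 (-0.47 ± 0.06) stands alone at the top and days 7, 3 and 5 lacZ stand apart from one another at the bottom, while day 3 MGT, days 10 and 14 lacZ and day 7 MGT overlap in a run, as do days 5, 14 and 10 MGT. Bmp7 overlaps along most of its order. Over the 11 group means, which share arrays and the vector split, Id1 and Nog had a Pearson r of -0.982, Id1 and Bmp6 0.947, Id1 and Id3 0.928, and Grem1 and Nog 0.847. Bmp2 had an r between -0.110 and 0.392 with the others. Bmp7, below background on some arrays, was left out of these correlations.

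The genes with the most similar course were sought among 12399 named genes above background on all arrays, by Pearson r over the 11 group means, for all of the 9 genes but Bmp7, which was below background on some arrays. For Id1 they were Acvrl1 (r = 0.985), a type I receptor of BMP9 and BMP10, and Marcks (0.984). The nearest to Id3 were Prrx2 (0.987), a homeobox gene of mesenchyme, and Nbl1 (0.970), itself a BMP antagonist. Id2 had Ripk1 (0.951) and Bst1 (0.939), Bmp4 had Igfbp3 and Svep1 (0.955 each), and Bmp6 had Ywhag (0.969) and Adamts1 (0.965). Beside Nog stood Ppfia4 and Pick1 (0.982 each), beside Grem1 Atp11b (0.975) and Efhd2 (0.967), and beside Bmp2 Rap1b (0.916) and Abcc4 (0.905). With 11 points and a split in common, high values of r are easily reached, and Bmp2, whose course does not follow that split, had the lowest.

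Other genes of the pathway were taken from 6 lists with 54 genes in all, of which 47 were measured. The lists' calls below are for MGT minus lacZ averaged over days 3 to 14. Beside them stand the 63.9% of all genes given above (23.2% higher, 40.7% lower) and their median of -0.09. These shares cover all genes that passed the background filter in any group. Counts and medians of a list cover the genes that passed the background filter in a lacZ group and also in an MGT group. Bmp8b, Hjv, Chrdl1 and Sost passed the filter through MGT groups alone, a filter that favours higher values with MGT, and are left out of the counts. Of the 6 other ligands counted 2 were higher, 2 lower and 2 did not pass (median -0.07). Bmp3, a ligand that opposes osteogenic BMPs, was 1.99 higher (SE 0.09, adjusted p = 3.14e-10): its MGT levels lay between 0.28 and 0.84 and its lacZ levels between -2.62 and -0.17, against -4.82 and -5.09 at day 0. Gdf6 was lower (-1.23), although both vectors' levels were far above its day 0 levels of 1.14 and 0.97. Bmp8a was higher with MGT (1.26) and was above background on all 22 arrays. Its close paralog Bmp8b was above background on 10 of 10 MGT and 1 of 10 lacZ arrays. Whether the 2 genes share signal was not tested. Gdf7 (-0.55) was the other lower gene, and Bmp10 and Gdf5 did not pass.

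Receptors went both ways. Of the 10 type I and II receptors and co-receptors counted 4 were higher, 3 lower and 3 did not pass (median -0.03). Acvrl1 was the largest of these differences at -1.55 (SE 0.04, adjusted p = 1.15e-12). Its 10 lacZ arrays lay between 2.69 and 3.21 and its 10 MGT arrays between 1.13 and 1.87, with day 0 at 2.63 and 2.60. Eng, the co-receptor that works with it, was also lower (-0.45), and so was the type I receptor Bmpr1b (-0.91), which was below background on some arrays of both vectors. The higher genes were Bmpr1a (0.42), Bmpr2 (0.23), Acvr2b (0.33) and Rgmb (0.36), and Hjv was above background on 4 of 10 MGT and 1 of 10 lacZ arrays.

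Among 8 SMAD proteins and their regulators 6 were lower, 1 higher and 1 did not pass (median -0.27). Smad6, an inhibitory SMAD that BMP itself induces, was -1.02 (SE 0.05, adjusted p = 5.65e-10). At day 0 it was at 2.89 and 2.98, and at day 3 at 2.86 and 2.80 with lacZ and 2.38 and 2.42 with MGT. By day 7 lacZ cultures stood at 4.15 and 4.05 and MGT cultures at 2.80 and 2.60. The ubiquitin ligases Smurf2 (-0.52) and Smurf1 (-0.41), which mark SMADs and receptors for breakdown, were lower too, and Smad9 was the 1 higher gene (0.35).

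Of 10 further BMP target genes measured, 8 were lower, 1 higher and 1 did not pass (median -0.36); the inhibitory Smad6 and Smad7 and Smad9 are in this list and the last. Id4, the fourth Id gene, was -1.52 (SE 0.07, adjusted p = 4.07e-10), with lacZ arrays between -0.90 and 0.30 and MGT arrays between -2.59 and -0.89. Atoh8 (-0.88) had levels of -0.16 and -0.27 with lacZ and -0.13 and 0.00 with MGT at day 3, where the difference did not pass (0.15, adjusted p = 0.331), and at day 5 of 1.25 and 1.26 against 0.28 and 0.36. Runx2 (-0.67), a bone regulator, was above background on 13 of 20 arrays. At day 3, 2 of the 10 targets were lower and 2 higher (all genes 18.1% and 12.3%), and at day 14, 7 were lower and 1 higher (29.3% and 18.2%). Of the 3 E proteins, the partners that Id proteins bind, Tcf12 was lower (-0.26) and Tcf3 and Tcf4 did not pass.

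The other secreted antagonists went both ways. Of the 9 counted 2 were higher, 5 lower and 2 did not pass (median -0.10). Fst, which binds activins and some BMPs, was 1.35 higher (SE 0.05, adjusted p = 6.59e-11), with the widest gap at day 5, when lacZ arrays had 1.45 and 1.40 and MGT arrays 4.24 and 4.42. The other higher gene was Twsg1 (0.37). Chrdl1 and Sost were above background on 10 of 10 MGT and 0 of 10 lacZ arrays, which puts MGT at least 4.67-fold and at least 2.50-fold above the lacZ floor, as a description. Nbl1 was lower (-1.23, SE 0.04), with MGT arrays between 2.15 and 2.55 and lacZ arrays between 2.84 and 4.04, and the other lower genes were Fstl1, Fstl3, Crim1 and Bmper. Under 4 other scalings of the values the call of Bmper was lost in 3 and that of Gdf7 in 1, and no gene of the 6 lists that was called changed direction. Calls were gained for Smad1 (0.16) and Hey1 (0.14), both higher with the percentile over probes above background on every array, and for Tcf3 (-0.13), lower with the authors' deposited table.

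**Figure D3:**
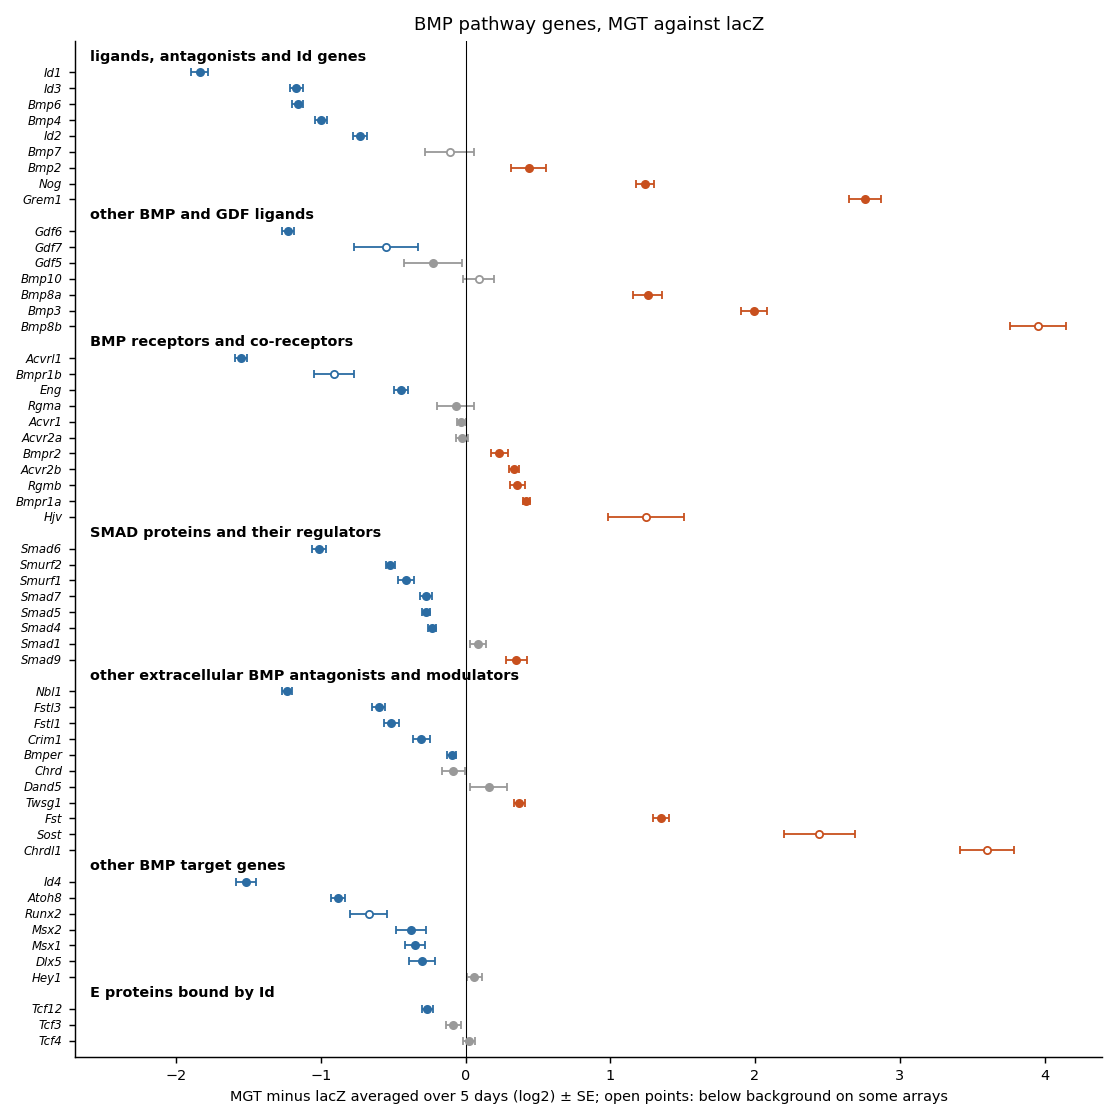
Difference of MGT minus lacZ averaged over 5 days (log2, x axis) for the 9 genes and the measured genes of the 6 lists, each gene shown once; points are limma estimates, bars 1 SE, blue is called lower, orange higher and grey not called, and open points are below background on some arrays. Grem1 lies at 2.76 and Nog at 1.24, Id1 at -1.84, and the other antagonists above background in both vectors spread from Nbl1 at -1.23 to Fst at 1.35; the points of Bmp8b, Hjv, Chrdl1 and Sost are fitted against lacZ signal mostly below background and are no measured sizes.

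**Figure D4:**
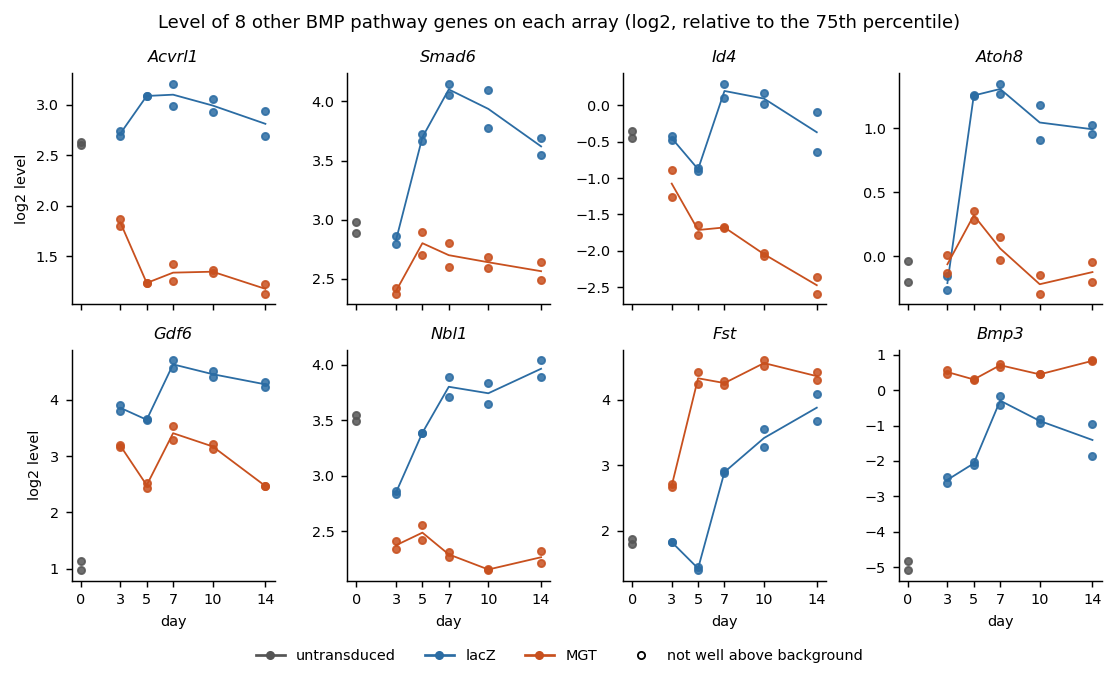
Log2 level (relative to the array's 75th percentile) of 8 other BMP pathway genes on each array against the day, with grey points for untransduced CF, blue for lacZ and orange for MGT, and lines joining group means. Acvrl1, Gdf6 and Nbl1 lie lower with MGT on all days, Bmp3 and Fst lie higher within each day, and the Atoh8 points of both vectors lie together at day 3.

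Markers of some other cell types also differed between the vectors. Of 9 endothelial markers 7 were lower with MGT, beside 40.7% of all genes, and Kdr and Vwf did not pass (median -1.55). With the authors' deposited table Kdr was called higher (1.41, adjusted p = 1.51e-08). The summed level of the 9, as log2 relative to the 75th percentile, lay between 4.94 and 5.03 at day 0, 3.47 and 5.11 with lacZ and 2.80 and 4.39 with MGT. The defining endothelial gene Cldn5 was above background on 11 of 22 arrays and Tie1 on 17, while Pecam1 and Cdh5 were above it on all 22. Endothelial cells express Id1, Acvrl1 and Eng strongly. In lacZ cultures the summed endothelial level was 5.10 and 5.11 at day 3 and 4.01 and 3.72 at day 7. Over the same days Id1 went from 2.86 and 2.84 to 3.73 and 3.46. Acvrl1 went from 2.69 and 2.74 to 2.99 and 3.21, and Eng from 3.46 and 3.43 to 3.39 and 3.29. In MGT cultures the summed endothelial level was 4.36 and 4.39 at day 3 and 3.29 and 3.15 at day 7. Id1 went there from 1.79 and 1.90 to 1.31 and 1.44. With MGT, Acvrl1 went from 1.80 and 1.87 to 1.25 and 1.42, and Eng from 3.0 and 2.95 to 2.78 and 2.67. Of 9 fibroblast markers 8 were lower with MGT, beside the same 40.7% of all genes, and Thy1 was higher. Lum (-3.02), Col3a1 (-1.84), Pdgfra (-1.35) and Dcn (-1.34) differed most among the lower ones. Col1a1 (-0.41), Col1a2 (-0.39), Postn (-0.39) and Tcf21 (-0.37) differed least, and the Col1a1 call was lost with quantile scaling (-0.17). The summed level of the 9 fibroblast markers lay between 9.88 and 10.72 with lacZ and 8.99 and 9.85 with MGT. Of 5 pericyte markers 3 were higher and 2 lower, of 6 epicardial and mesothelial markers 3 were higher and 3 lower, and of 4 smooth muscle markers 1 was higher and 1 lower. With normexp 1 pericyte marker was higher and 2 lower, and with quantile scaling 3 smooth muscle markers were higher and 1 lower. The part of these cell types in the lower Id1, Id3, Bmp4 and Acvrl1 and the higher Grem1 and Nog with MGT was not tested.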

How the data were processed

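Each deposited scanner file holds 1 array of a 1-colour Agilent mouse 8x60K design, with spot intensity that Agilent Feature Extraction 10.7.3.1 background-subtracted and detrended within the array, per the file headers. The authors also deposited a normalized intensity table by gene name. It was made with limma, per the submitters' processing notes, its scale and centring are unstated (column medians 198 to 206), and it served as an alternative.

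Values are log2 of the deposited processed intensity, scaled by subtracting the 75th percentile of the array's non-control spots; control and outlier spots were left out and 0 spots were saturated. Probes were kept where both arrays of some group were well above background (38813 of 55681). They were named by RefSeq accession (26056), symbol (3200) or synonym (930), and the brightest kept probe stood for a gene (4719 genes had several). Probe positions are those of the array design.

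limma 3.58.1 in R 4.3.3 fitted 11 group means over 22 arrays, was tested on simulated data, and used Benjamini-Hochberg adjustment over all genes in each comparison with a threshold of 0.05. Named are the 9 genes, up to 4 called genes of each list by size, genes a count needs (the latter, and the markers named, chosen after their values were seen), and the 2 genes with the most similar course to each of the 8 that were above background on every array. Alternatives were normexp background correction (offset 50), quantile scaling, the percentile over probes above background on every array, the deposited table, other probe filters and rules, only the arrays of a comparison, single slides, a replicate block, trended robust eBayes and leaving out each array. Averaging over days 3 to 10, the change from day 3 to day 5 and the list counts under other scalings were added after seeing the data. One gene of the antagonist list is not reported here. The genes and lists were chosen with earlier results of these data known. Arrays of a group correlated at r = 0.985 to 0.998, and 0 pairs held identical values.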

Additional observations from a re-analysis of the deposited data

Results flagged for a closer look

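For 7 of the 9 genes, and 27.6% of all genes, the difference between MGT and lacZ changed from day 3 to day 14, by a limma test of that change over all genes (Benjamini-Hochberg adjusted p, 2 arrays a group). Bmp2 changed by -1.34 (adjusted p = 0.0202), from higher with MGT to no called difference. Bmp4 changed by -1.21 (adjusted p = 4.17e-05), Id3 by -1.12 (adjusted p = 7.89e-05), Id1 by -0.96 (adjusted p = 0.002), Bmp6 by -0.77 (adjusted p = 0.000316) and Id2 by -0.46 (adjusted p = 0.0379), each toward lower values with MGT. Nog changed by 0.56 (adjusted p = 0.0483), toward higher values. The authors' deposited table ended the Id1 call (-0.58, adjusted p = 0.138), and so did normexp (-0.62, adjusted p = 0.0771). Under 19 alternatives the Nog call was lost in 14 and the Id2 call in 12, and the Bmp2 call was lost without the first day 3 array of either vector, the second day 14 lacZ or the second day 14 MGT array (adjusted p = 0.0561 to 0.0711). Day 14 MGT has a slide of its own, so slide and this change cannot be told apart. The change from day 3 to day 5 lies within slide 1 and was counted among the 19 alternatives, although it spans other days. It passed for 5 of the 9 genes and for 1481 of 18061 genes in all. Bmp6 (-0.21, adjusted p = 0.323) and Bmp2 (0.45, adjusted p = 0.601) did not pass there.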

How the results depend on the processing

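Averaged over days 3 to 14, Bmp4, Bmp6, Grem1, Nog and the 3 Id genes kept direction and call under all 33 alternatives run, with Grem1 between 2.56 and 2.94, Nog between 0.98 and 1.32 and Id1 between -2.12 and -1.49. Bmp2 lost its call in 1 of 33. Over all comparisons, 1538 alternative values of single genes kept direction and call, 64 lost a call and 17 gained one. A further 16 changed sign without a call, and 1 called value changed sign. That was the Bmp2 change, -1.34 from day 3 to day 14 and 0.45 from day 3 to day 5 (adjusted p = 0.601). The latter spans other days, so it is another quantity and no reversal under other processing. The 7 calls among the 9 genes for the change from day 3 to day 14 were 4 with normexp background correction, where Id1 was lost (-0.62, adjusted p = 0.0771). Fewer genes passed with any 1 array of that change left out. These were not always the same genes. Without the second day 14 lacZ array Bmp2, Id2 and Nog were lost, while Grem1 (-0.92) and Bmp7 were gained. With only the arrays of the comparison, lacZ day 3 minus day 0 called 8 (5 in the fit of all arrays) and lacZ day 14 minus day 0 called 2 (6), the same number as within its slide, 2. Over all genes the fit of only its arrays called more at day 3 (7367 against 5494) and day 5 (7096 against 6876), fewer at day 7 (5766 against 6734), and 3286 at day 10 (7105), 2699 at day 14 (8591) and 3294 for the change (4978), while the change from day 3 to day 5 called 1481; the cause was not tested. Of the calls at day 14 38.4% were higher, but 26.8% with normexp, 50.9% with the deposited table, 51.5% with quantile scaling and 52.3% with the percentile over probes above background on every array; that percentile also moved day 3 from 40.6% to 51.7%, day 7 from 39.9% to 50.2% and day 10 from 38.6% to 49.6%. For the change 44.7% were higher, but 33.1% with normexp, 56.9% with the deposited table and 57.6% with quantile scaling. The median of all genes at day 14 was -0.24 with normexp, against -0.09. Replicate numbers did not pair the arrays: deviations correlated at -0.0907 to 0.156 over 55 pairs of groups. The replicate block called 11538 genes in the averaged comparison (11544 without) and 8 of the 9 genes in both; it moved the adjusted p of the Nog change to 0.0523. A slide block could not be fitted, since slides are fixed by the groups. Bmp7 was at the limit of signal over background, and its calls are the least certain.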
